A study of Mus musculus with 12 samples.

Results

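T helper 17 (Th17) cells lacking the glucose transporter GLUT3 were compared with T helper 1 (Th1) cells lacking the same transporter, across the 13660 genes that reached 1 TPM in at least 3 of these 6 libraries, out of 45703 genes in the deposited tables. TPM is a level per exon length that sums to the same value in every library, so levels of different genes can be compared. Of the 13660 genes, 10294 are annotated as protein coding. Both groups carried the floxed Slc2a3 gene and the Cre transgene (genotype Slc2a3-fl/fl Cd4-cre) on the C57BL/6 background, so the deletion is common to both sides of the comparison and the difference between them is the lineage. The cultures started from naive mouse T cells, activated through CD3 and CD28 and kept for 3 days with cytokines that direct Th1 or Th17 differentiation, and the sequenced cells are given as CD4+ T cells. The labels name neither the cytokines nor the age or sex of the mice. Each group had 3 libraries, and 3 wild-type libraries of each lineage (C57BL/6, cultured the same way) served for the comparison between genotypes, with no word on whether they carried the Cre alone. Cd4-cre acts in developing T cells of the thymus, so the cells were already without the gene when they were activated, and the Cre is active in CD8+ T cells as well. The labels do not say whether the replicates came from separate mice, so every p-value reflects the variation among these libraries, which may be technical.

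GLUT3, the product of Slc2a3, is a high-affinity facilitative transporter that carries glucose into neurons and activated lymphocytes next to the more widely expressed GLUT1 (Slc2a1). Th17 cells are CD4+ T cells that arise under TGF-beta and interleukin 6, secrete IL-17A and IL-17F and act against fungi and extracellular bacteria. Th1 cells arise under interleukin 12 and interferon gamma through the signal transducer STAT4 and the T-box factor T-bet (Tbx21), secrete interferon gamma and act against intracellular microbes. Both lineages can drive autoimmune inflammation.

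The deleted gene was low in every GLUT3-deficient library. Slc2a3 stood at 5.14, 18.8 and 3.31 TPM in the 3 GLUT3-deficient Th17 libraries and at 6.79, 4.49 and 7.97 TPM in the Th1 libraries, against 379, 109 and 44.6 TPM in wild-type Th17 and 398, 95.5 and 64.7 TPM in wild-type Th1 cells. The GLUT3-deficient groups overlapped, with the highest level in Th17 replicate 2, and every one of the 6 libraries lay below every wild-type library. The depth of these libraries, recovered from the TPM steps, ran from 16596283 to 28496606 reads. One library stood apart. Th17 replicate 2 differed from its group by a median absolute log2 difference of 0.64, against 0.17 to 0.44 in the other 5 GLUT3-deficient libraries, and held the first principal component, with 66.7% of the variance, nearly alone. Its deviation moved with transcript length. The 500 genes that stood highest in it relative to the other Th17 libraries had a median exon length of 5249 bases, and the 500 lowest had 510 bases, against 2616 bases over all genes tested. Genes longer than 4000 bases had a median log2 difference between lineages of 0.38 over all 6 libraries and of 0.05 without Th17 replicate 2, whereas genes shorter than 1000 bases had -0.03 and 0.16. Counts for the gene lists below are followed by those without this library where they moved, and its part in any single difference was not tested beyond that. The T cell label was borne out by its markers. None of the 10 CD4 T cell markers (the CD3 chains, T cell receptor constant genes, Cd4, Cd5, Lck and Cd28) differed between the lineages by the test described next (2 were higher in Th17 without Th17 replicate 2), and their summed level ran from 10400 to 12400 TPM in Th17 and from 11400 to 11900 TPM in Th1 libraries.

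**Figure D1:**
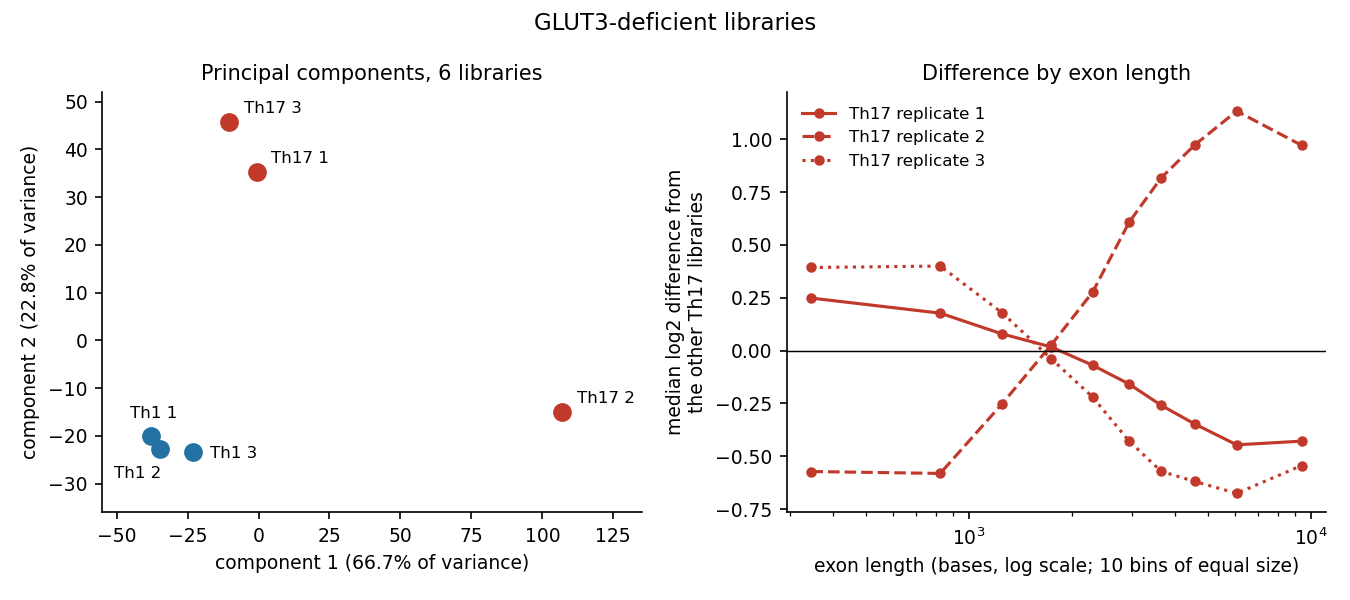
Left: the 6 GLUT3-deficient libraries on their first and second principal components (arbitrary units, log2(TPM + 1) of the genes tested), Th17 in red and Th1 in blue. Right: median log2 difference of each Th17 library from the other Th17 libraries (y axis) against exon length in bases (x axis, log scale, 10 bins of equal size). Th17 replicate 2 lies at 106.9 on component 1, far from the other 5 libraries (-38.0 to -0.7), and its difference from the others runs from -0.57 in the bin of the shortest genes to 1.13 in the bin with a median length of 6078 bases.

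A difference was called when the Benjamini-Hochberg adjusted p of limma's moderated test on log2(TPM + 1) was below 0.05, with the p-values adjusted over all 13660 genes. The log2 differences are Th17 minus Th1 on that scale, which understates the change of genes near 0. By this rule 588 genes (4.3% of those tested) differed between GLUT3-deficient Th17 and Th1 cells, 284 of them higher in Th17 (2.08%) and 304 higher in Th1 (2.23%). Of these, 82 were at least 4-fold higher in Th17 and 101 at least 4-fold higher in Th1 on the log2(TPM + 1) scale. Without Th17 replicate 2 the same rule called 2663 genes (19.5%), 1409 higher in Th17 (10.3%) and 1254 higher in Th1 (9.18%), and all 588 remained among them in the same direction. Counts in every gene list below, with and without that library, are to be read against these shares. Leaving out any one of the other libraries lowered the count, to 209 (Th17 replicate 1), 297 (Th17 replicate 3), 143, 163 and 208 (Th1 replicates 1, 2 and 3). Some calls given below were lost whichever of these was left out, among them Ahr, Il22, Il23r, Id2, Il4, Irf8, Havcr2 and Cyp11a1. So were those of Decr1, Gadd45a, Dusp2, H2-Q7 and Dnajb11. In 4130 genes (30.2%) every library of one lineage lay above every library of the other. The median difference over all genes tested was 0.13, a shift that median-of-ratios scaling brought to 0.00, and single differences are to be read relative to it. These are bulk cultures, in which fewer cells making a transcript and less of it per cell cannot be told apart.

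**Figure D2:**
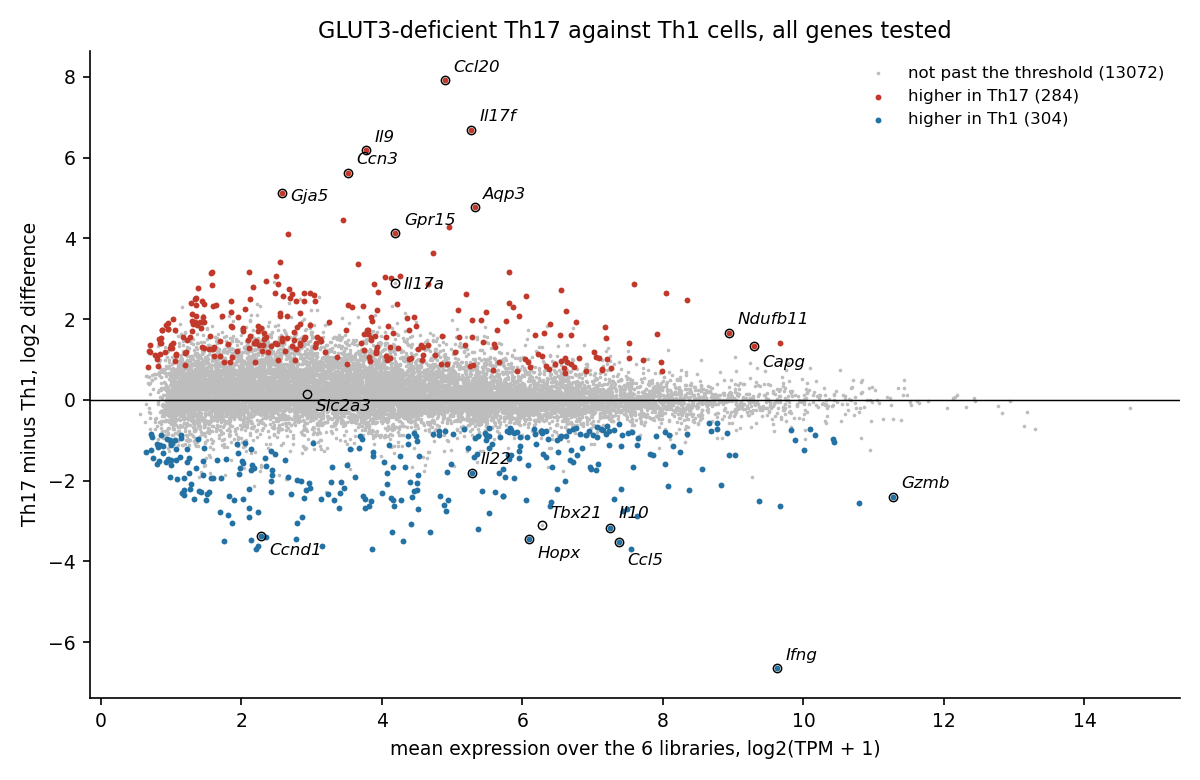
Log2 difference between GLUT3-deficient Th17 and Th1 cells (y axis, positive when higher in Th17) against the mean level over the 6 libraries (x axis, log2(TPM + 1)), 1 point per gene tested. Red points (284) are called higher in Th17 and blue points (304) higher in Th1. Open rings mark the labelled genes. Ccl20 and Il17f lie farthest up at 7.92 and 6.69, Ifng farthest down at -6.65, and Il17a and Tbx21 are among the labelled genes that did not pass.

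The Th17 cytokines held the largest differences toward Th17. Of 7 tested members of the Th17 signature cytokine list, 3 were higher in Th17 (Il17f, Il9 and Ccl20) and 2 were higher in Th1 (Il22 and Il24), with a list median of 2.89 against 0.13 over all genes (4 and 2 without Th17 replicate 2). CCL20, the chemokine that draws CCR6-bearing cells, had transcript levels of 423, 366 and 629 TPM in Th17 and 1.36, 0.868 and 0.58 TPM in Th1 libraries. Every Th17 library lay more than 100-fold above every Th1 library, and the log2 difference of 7.92 ± 0.26 (SE) was the largest of all genes named here (adjusted p = 0.000223). Il17f, which encodes the homodimer-forming relative of IL-17A, stood at 356, 309.6 and 545 TPM in Th17 and 3.25, 4.52 and 1.36 TPM in Th1 cells. The groups did not overlap, and the difference was 6.69 ± 0.37 (SE) with an adjusted p of 0.00109. Il9, a mast cell growth factor also made by some Th17 cultures, reached 150.1, 71.6 and 145 TPM in Th17 and 0.235, 2.36 and 0 TPM in Th1 libraries, a difference of 6.19 ± 0.53 (SE) (adjusted p = 0.00261). Th17 replicate 2 was the lowest of its group for these 3 genes, and still far above the Th1 cells.

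Il17a, the gene that names the lineage, was lower in absolute terms and did not pass the test. Its levels were 42.1, 74.3 and 36.8 TPM in Th17 and 5.76, 15.4 and 1.69 TPM in Th1 libraries. All Th17 libraries were above all Th1 libraries, but the Th1 libraries differed among themselves by up to 9-fold, and the difference of 2.89 ± 0.66 (SE) had an adjusted p of 0.0706. Without Th17 replicate 2 it passed at 2.59 (adjusted p = 0.0243). Il17f thus had several times the TPM of Il17a in the same Th17 cultures, as it also had in wild-type Th17 cells (568, 958 and 1076 against 20.1, 18.3 and 22 TPM). Il22, whose product acts on epithelial barriers, went the other way: 22.8, 20.4 and 16.7 TPM in Th17 and 60, 112 and 54.2 TPM in Th1 cells, all Th1 libraries the higher ones, with a difference of -1.80 ± 0.30 (SE) (adjusted p = 0.0256). Il24, an IL-10 family cytokine, was also higher in Th1, at 246, 214 and 204 TPM against 125, 92.2 and 89.1 TPM (-1.12 ± 0.17 (SE), adjusted p = 0.0202). Il21, a T cell growth factor made by Th17 and follicular helper cells, overlapped between the lineages at 379.7, 563 and 273 TPM in Th17 and 317, 275 and 345 TPM in Th1 cells.

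The promoters of 3 Th17-side and 3 Th1-side genes are shown because these genes give the strongest or the most lineage-defining differences. Each is the 250 bases before the RefSeq transcription start, 5′ to 3′ on the gene's strand (GRCm38.p6), and capitals mark matches to the motifs described after them. The Th17-side promoters are those of Il17a at chr1:20730655-20730904 on the plus strand, Il17f at chr1:20784271-20784520 on the minus strand and Ccl20 at chr1:83116516-83116765 on the plus strand.
Il17a: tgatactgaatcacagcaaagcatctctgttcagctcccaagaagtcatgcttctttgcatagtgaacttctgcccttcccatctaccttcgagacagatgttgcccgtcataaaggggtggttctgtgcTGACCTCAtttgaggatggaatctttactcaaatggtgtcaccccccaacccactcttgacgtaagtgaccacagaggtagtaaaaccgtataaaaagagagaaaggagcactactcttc
Il17f: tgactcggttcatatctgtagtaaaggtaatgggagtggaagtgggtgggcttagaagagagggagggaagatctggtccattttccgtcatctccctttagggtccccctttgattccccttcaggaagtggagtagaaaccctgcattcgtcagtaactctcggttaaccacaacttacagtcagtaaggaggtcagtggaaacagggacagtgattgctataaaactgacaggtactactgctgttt
Ccl20: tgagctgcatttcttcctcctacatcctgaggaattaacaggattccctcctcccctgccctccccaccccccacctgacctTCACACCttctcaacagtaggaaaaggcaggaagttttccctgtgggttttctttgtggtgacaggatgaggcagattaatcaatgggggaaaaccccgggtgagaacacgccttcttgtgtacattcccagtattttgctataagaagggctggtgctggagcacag
The Th1-side promoters are those of Ifng at chr10:118440796-118441045 on the plus strand, Ccl3 at chr11:83649379-83649628 on the minus strand and Cxcr1 at chr1:74194632-74194881 on the minus strand.
Ifng: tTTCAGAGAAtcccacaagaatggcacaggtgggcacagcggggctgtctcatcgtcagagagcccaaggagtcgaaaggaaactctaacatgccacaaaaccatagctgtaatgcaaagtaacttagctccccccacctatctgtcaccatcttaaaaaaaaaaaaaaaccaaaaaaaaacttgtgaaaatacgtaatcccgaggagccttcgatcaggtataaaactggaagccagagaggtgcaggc
Ccl3: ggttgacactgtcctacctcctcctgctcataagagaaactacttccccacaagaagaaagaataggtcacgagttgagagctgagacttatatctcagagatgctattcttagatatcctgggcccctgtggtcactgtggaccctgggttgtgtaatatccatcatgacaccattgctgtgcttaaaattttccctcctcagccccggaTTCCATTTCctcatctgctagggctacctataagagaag
Cxcr1: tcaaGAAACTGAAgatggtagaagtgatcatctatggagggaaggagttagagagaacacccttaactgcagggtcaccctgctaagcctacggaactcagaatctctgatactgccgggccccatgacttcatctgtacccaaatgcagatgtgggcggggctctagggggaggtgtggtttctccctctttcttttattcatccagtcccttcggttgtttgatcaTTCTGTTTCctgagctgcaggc
The capitals in Il17a are a ROR response element (TNAGGTCA) on the minus strand, from base -120 to base -113 before the start. None of the motifs searched has its letters in the Il17f window. That window lies within the annotated gene (20777146 to 20785274), so the start listed for Il17f is not its outermost one. The Cxcr1 window also reaches into its annotated gene, which ends at 74194708. Ccl20 holds a T-box element (GGTGTGA) on the minus strand. Ifng holds a gamma-activated site (TTCNNNGAA, which reads the same on both strands), Ccl3 a match to the interferon-stimulated response element core (GAAANNGAA) on the minus strand, and Cxcr1 a match to that core on each strand. RefSeq windows of 300 bases (250 before to 50 after the start, first listed window per gene, both strands searched) were found for 8983 of the 13660 genes, including 215 of the 284 higher in Th17 and 224 of the 304 higher in Th1. The ROR element was in 2.8% of the Th17-higher, 4.0% of the Th1-higher and 3.1% of all windows. The interferon-stimulated core was in 10.2%, 12.9% and 7.5%, the gamma-activated site in 8.8%, 9.4% and 7.1%, the T-box element in 3.7%, 5.8% and 3.3%, and the hypoxia response element ACGTG in 16.3%, 22.8% and 26.8%. Matches to different motifs can overlap and were counted separately. The shares are descriptions of these letters and say nothing of binding.

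Among transcription factors of the Th17 lineage 3 of 28 tested were higher in Th17 and 1 in Th1, with a median of 0.90. Over all genes tested the shares were 2.08% and 2.23%. Without Th17 replicate 2 the counts were 13 and 2 with a median of 0.43, against 10.3% and 9.18% of all genes. Ahr, the aryl hydrocarbon receptor, was 6.74, 30.9 and 7.53 TPM in Th17 and 0.269, 0.669 and 0.402 TPM in Th1 cells, with Th17 replicate 2 far above its group. The difference of 3.16 ± 0.55 (SE) (adjusted p = 0.0302) was 2.50 without that library (adjusted p = 9.52e-05). Transcripts of 2 of 5 tested targets of this receptor were higher in Th17 as well (3 without Th17 replicate 2). Cyp1a1, a monooxygenase that the receptor induces, was at 1.45, 3.03 and 3.6 TPM against 0.0461, 0 and 0.125 TPM, and Cyp1b1 at 1.16, 1.89 and 1.3 TPM against 0.0249, 0.077 and 0.0675 TPM, low levels that did not overlap (adjusted p = 0.0176 and 0.014). Runx1, a Runt-domain factor, passed at 1.47 ± 0.24 (SE). Rora, a nuclear receptor gene of the lineage, was 3.33, 3.53 and 3.37 TPM in Th17 and 1.88, 1.47 and 2.11 TPM in Th1 cells, without overlap, yet its difference of 0.65 did not pass (adjusted p = 0.14, and 0.0334 without Th17 replicate 2). Id2, an inhibitor of E proteins listed for both lineages, was higher in Th1 (-1.23 ± 0.20 (SE), adjusted p = 0.0224).

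Among surface proteins of Th17 cells 6 of 19 tested were higher in Th17 and 1 in Th1, with a list median of 1.37, and without Th17 replicate 2 the counts were 11 and 1 with a median of 0.76. Ccr6, the receptor for CCL20, was at 20.2, 19.2 and 17.8 TPM in Th17 and 2.52, 2.18 and 2.25 TPM in Th1 cells, the 2 groups each within a narrow range (2.60 ± 0.19 (SE), adjusted p = 0.00157). Ccr4, another chemokine receptor of Th17 cells, was at 38.5, 45.2 and 33.4 TPM against 4.21, 4.67 and 4.54 TPM. Procr, the endothelial protein C receptor, was at 64.2, 42.8 and 58.3 TPM against 4.59, 8.84 and 4.27 TPM. Il1rn, the secreted antagonist of the interleukin 1 receptor, and Ltb4r1, a leukotriene receptor, passed at 2.46 ± 0.28 (SE) and 2.39 ± 0.28 (SE). Il23r, the receptor chain that sustains Th17 cells, gave the smallest of these differences, at 8.52, 13.3 and 10.1 TPM in Th17 and 3.72, 3.71 and 2.94 TPM in Th1 cells (1.37 ± 0.24 (SE), adjusted p = 0.0287). The costimulatory receptor gene Icos was the member higher in Th1 (-0.95 ± 0.13 (SE)).

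**Figure D3:**
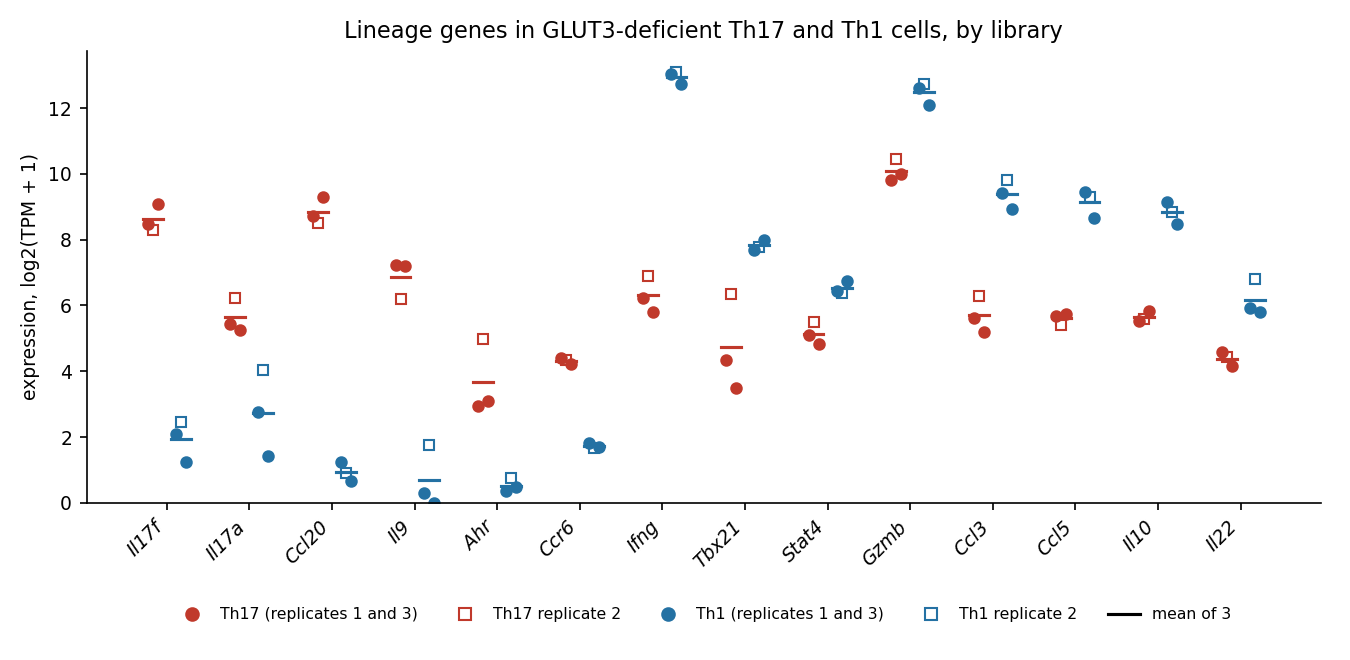
Level of 14 lineage genes in each GLUT3-deficient library (y axis, log2(TPM + 1)), Th17 in red and Th1 in blue. Open squares are the libraries numbered 2 and short bars are means of 3 log2 values. Ccr6 separates the lineages with little spread, the Th17 replicate 2 square stands above its group for Ahr and Tbx21, and Il22 is higher in the Th1 libraries.

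Several of the largest Th17-side differences were in genes outside the cytokine and receptor lists. Ccn3, a secreted matrix-associated protein, was at 95.9, 73.4 and 70.6 TPM in Th17 and 0.485, 0.75 and 0.634 TPM in Th1 cells (5.63 ± 0.21 (SE), adjusted p = 0.000301). Gja5, which encodes the gap junction protein connexin 40, was at 27, 53 and 28.4 TPM against 0, 0 and 0.0365 TPM, so that it was essentially a Th17 transcript in these cells (adjusted p = 0.00109). Aqp3, the water and glycerol channel, was at 222, 183 and 221 TPM against 6.34, 6.88 and 6.86 TPM (4.77 ± 0.15 (SE), adjusted p = 0.000223). These 3 genes had the groups far apart in every library. Gap43, a neuronal growth cone protein, was at 164, 75.7 and 201 TPM in Th17, lowest in replicate 2, and 5.94, 7.28 and 4.97 TPM in Th1 cells. Nt5e, the ectonucleotidase CD73, was at 22.1, 43.5 and 17.1 TPM against 0.395, 0.833 and 0.39 TPM. Cd101, an inhibitory immunoglobulin-family protein, hardly varied among the Th17 libraries, at 18, 18.1 and 18.5 TPM against 0.943, 0.772 and 0.677 TPM. Gpr15, a receptor that directs T cells to the colon, was at 70.2, 87.4 and 70.3 TPM against 3.6, 4.95 and 2.03 TPM. Ifngr2, the signalling chain of the interferon gamma receptor, was at 177, 152 and 172 TPM in Th17 and 19.5, 13.1 and 21.6 TPM in Th1 cells, which made it one of the larger differences on the Th17 side (3.17 ± 0.21 (SE), adjusted p = 0.00153). For 2 genes 1 library set the size: the carboxypeptidase gene Cpd was at 48.7, 331 and 49.4 TPM and Dennd5a, a Rab exchange factor, at 25.7, 103 and 22.7 TPM in Th17, and their differences of 3.65 and 3.36 were 2.74 and 2.68 without Th17 replicate 2, where both remained called.

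On the Th1 side 7 of 11 tested members of the cytokine list were higher in Th1 and none in Th17, with a median of -1.27 (8 and 1 without Th17 replicate 2). Ifng stood at 8483, 8709 and 6739 TPM in Th1 and 73.2, 119 and 54.7 TPM in Th17 cells. It was among the most abundant transcripts of the Th1 cultures, every Th1 library exceeded every Th17 library by more than 50-fold, and the log2 difference was -6.65 ± 0.29 (SE) (adjusted p = 0.000515). Il10, the anti-inflammatory cytokine that Th1 cells can also make, was at 567, 462 and 357 TPM in Th1 and 45.5, 47.5 and 56.5 TPM in Th17 cells, without overlap (-3.17 ± 0.20 (SE), adjusted p = 0.00134). Il23a, the p19 chain of interleukin 23 and more often a product of dendritic cells, was at 61.2, 77 and 47 TPM against 8.05, 5.14 and 6.12 TPM. Spp1, which encodes osteopontin, was at 146, 146 and 178 TPM against 22.6, 31.1 and 28.6 TPM. Lymphotoxin alpha (Lta) was abundant in both lineages, at 2063, 1868 and 1985 TPM in Th1 and 1069, 1002 and 845 TPM in Th17 cells, and passed at -1.03 ± 0.14 (SE), as did Tnf at -1.27 ± 0.18 (SE). Il3, a growth factor of mast cells and basophils, was at 4.47, 3.4 and 7.25 TPM in Th1 and 0, 0 and 0.224 TPM in Th17 cells. Csf2, which encodes GM-CSF, had all Th1 libraries above all Th17 libraries but did not pass (-1.27, adjusted p = 0.065, and 0.0131 without Th17 replicate 2). The T cell growth factor gene Il2 was low in both, at 1.42, 1.26 and 4.65 TPM in Th1 and 4.91, 5.22 and 5.55 TPM in Th17 cells.

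Of 13 chemokines tested, 4 were higher in Th1 and 1, Ccl20, in Th17, with a median of -0.07, counts that were the same without Th17 replicate 2. Ccl3, which encodes the inflammatory chemokine MIP-1 alpha, was at 686, 898 and 484 TPM in Th1 and 48.5, 77.4 and 35.4 TPM in Th17 cells (-3.68 ± 0.34 (SE), adjusted p = 0.00339). The related Ccl4 was at 1777, 1869 and 1180 TPM against 271, 270.4 and 284 TPM, and Ccl5 at 701, 633 and 403 TPM against 50.2, 41.6 and 52.9 TPM. None of these 3 genes had overlapping groups. Transcripts of the neutrophil chemokine receptors Cxcr1 and Cxcr2 were also present in the Th1 cultures: Cxcr1 at 32, 32.1 and 26.7 TPM against 1.58, 0.582 and 2.87 TPM, and Cxcr2 at 18.3, 13.4 and 15.4 TPM against 0.919, 0.466 and 0.406 TPM. Of the neutrophil markers, S100a8 was listed at 0 in all 3 Th1 libraries and Ly6g was higher in Th17 (1.80), and the part of such cells was not tested. Of 29 chemokine and homing receptor genes tested, 4 were higher in Th17 (Ccr4, Ccr6, Ccr8 and Gpr15) and 2 in Th1, against 5 and 7 without Th17 replicate 2. Over all genes tested 2.08% were higher in Th17 and 2.23% in Th1, and 10.3% and 9.18% without that library.

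Among the Th1 transcription factors 7 of 23 tested were higher in Th1 and none in Th17, with a median of -0.05, against 10 and 2 with a median of -0.44 without Th17 replicate 2. Tbx21, the defining factor, was at 206, 218 and 255 TPM in Th1 and 19.2, 81.2 and 10.3 TPM in Th17 cells. All Th17 libraries lay below all Th1 libraries, but Th17 replicate 2 stood 4-fold or more above the other Th17 libraries and the gene did not pass (-3.09 ± 0.68 (SE), adjusted p = 0.0642). Without that library the difference was -3.91 with an adjusted p of 4.28e-05. Hopx, a homeodomain protein of effector and memory Th1 cells, was at 239, 211 and 224 TPM in Th1 and 17.8, 22.9 and 18.7 TPM in Th17 cells, with narrow spread in both groups (-3.45 ± 0.15 (SE), adjusted p = 0.000515). Stat4, which relays interleukin 12, was at 85, 83 and 106 TPM against 33.5, 44.3 and 27.2 TPM (-1.37 ± 0.21 (SE), adjusted p = 0.0202). Irf8, Prdm1 (which encodes Blimp-1), Nfil3 and Twist1 also passed, at -2.62, -2.49, -1.35 and -1.09.

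Th1 receptors and surface proteins were higher in Th1 for 10 of 27 members tested and higher in Th17 for 2, with a median of -0.88 (15 and 2 without Th17 replicate 2). Il18r1, a chain of the interleukin 18 receptor, was at 41.1, 39.1 and 38.5 TPM in Th1 and 6.87, 5.89 and 6.71 TPM in Th17 cells (-2.44 ± 0.17 (SE), adjusted p = 0.00153). Havcr2, which encodes TIM-3, was at 21, 24.8 and 15.3 TPM against 2.68, 7.21 and 1.42 TPM, and Slamf7 at 122, 80.3 and 124 TPM against 21.2, 23.7 and 19.2 TPM. The chains of the interferon gamma receptor went in opposite directions. Ifngr1, the ligand-binding chain, was at 263, 267 and 220.3 TPM in Th1 and 112, 130.2 and 99.5 TPM in Th17 cells (-1.13 ± 0.16 (SE), adjusted p = 0.0127), while Ifngr2 was higher in Th17 by 3.17. The other member higher in Th17 was Cd226, an activating receptor, at 26.6, 28.9 and 21.3 TPM against 3.97, 4.09 and 4.93 TPM. Il12rb2, the inducible chain of the interleukin 12 receptor, was at 171, 166 and 188 TPM in Th1 and 35.6, 169 and 21.4 TPM in Th17 cells. Th17 replicate 2 lay within the Th1 range and the gene did not pass (-1.76, adjusted p = 0.282). Without it the difference was -2.62 (adjusted p = 0.000126). Cxcr3, the receptor for interferon-induced chemokines, was at 17.7, 20.9 and 23.3 TPM in Th1 and 7.04, 10.8 and 10.1 TPM in Th17 cells and missed the threshold (-1.08, adjusted p = 0.0564), passing without Th17 replicate 2 (adjusted p = 0.00406).

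Of 22 cytotoxic granule genes tested, 10 were higher in Th1 and none in Th17, with a median of -0.75 (11 and 1 without Th17 replicate 2). Gzmb, the serine protease granzyme B, was at 6204, 6781 and 4412 TPM in Th1 and 904, 1386 and 1014 TPM in Th17 cells, so it was abundant in both and without overlap (-2.40 ± 0.24 (SE), adjusted p = 0.00396). The neighbouring granzyme genes Gzmd, Gzme, Gzmf and Gzmg passed at -2.22, -2.32, -2.91 and -1.93. They are close copies of each other, so reads may be divided wrongly among them. Nkg7, a granule membrane protein, was at 661, 860.5 and 640.5 TPM against 117, 208 and 146 TPM, and the death ligand gene Fasl at 26.2, 26.6 and 23.5 TPM against 2.93, 4.67 and 2.17 TPM. Intracellular serpins, which guard cells against their own proteases, were higher in Th1 for 4 of 6 tested and higher in Th17 for none. Serpinb9, the inhibitor of granzyme B, was at 69.9, 77.4 and 67.5 TPM against 11.2, 19.5 and 7.96 TPM, its close relative Serpinb9b at 19.9, 33.2 and 15.1 TPM against 0.753, 1.26 and 1.3 TPM, and Serpinb5 at 70.5, 68.5 and 56.9 TPM against 4.83, 4.04 and 5.74 TPM.

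Some receptors shared with natural killer cells were also higher in Th1. Among 14 markers of CD8 T cells and natural killer cells, 11 were tested, 3 were higher in Th1 and none in Th17, with a median of -0.15, and without Th17 replicate 2 the counts were 4 and 2 with a median of -0.44. Klrk1 (NKG2D) was at 68.5, 66.4 and 57.4 TPM in Th1 and 11.5, 13.2 and 9.99 TPM in Th17 cells, Klrc1 at 121, 122 and 76.5 TPM against 23.9, 34 and 23.9 TPM, and Klrc2 at 35.5, 38.1 and 21.4 TPM against 8.4, 10.7 and 7.99 TPM. The rest of the list included Cd8a, Cd8b1, Klrd1 and Eomes. The summed level of all 14 markers was 226 to 338 TPM in Th1 and 116 to 132 TPM in Th17 libraries. Among the genes that define natural killer and CD8 T cells, Ncr1 was at 1.77, 0.933 and 1.32 TPM in Th1, Klrb1c at 0.562, 0.151 and 0.0883 TPM and Cd8a at 0.534, 1.27 and 0.705 TPM, and Cd8b1 at 11.6, 11.8 and 12.8 TPM in Th1 against 20.3, 15.4 and 20.9 TPM in Th17 cells. Klra7, a natural killer receptor gene, was at 2.7, 3.21 and 1.88 TPM in Th1 and 0.752, 0.47 and 1.13 TPM in Th17 cells, and passed without Th17 replicate 2 (adjusted p = 0.0234). The part of such cells in the granule genes was not tested.

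Further Th1-side transcripts belonged to unrelated families. The Ms4a genes, which encode small membrane proteins of leukocytes, were higher in Th1 for 5 of 8 tested and in Th17 for none (5 and 1 without Th17 replicate 2). Ms4a6b was at 418, 472 and 459 TPM against 143, 146 and 160.5 TPM, and Ms4a4b at 186, 219.9 and 180.5 TPM against 42.6, 55.5 and 44.9 TPM. Members of this cluster are similar in sequence, so single values are less certain. Fhl2, a LIM-domain cofactor, was at 52.9, 48.3 and 51.7 TPM in Th1 and 2.67, 4 and 2.54 TPM in Th17 cells (-3.69 ± 0.21 (SE), adjusted p = 0.00109). F3, tissue factor of the clotting cascade, was at 149.5, 75.4 and 170.5 TPM against 16.2, 15 and 8.15 TPM, and Anxa1, the phospholipid-binding annexin A1, at 78.3, 87.6 and 70.6 TPM against 6.17, 6.26 and 9.92 TPM. All Th1 libraries exceeded all Th17 libraries for these genes. Rufy4, a regulator of autophagy in dendritic cells, and Ocstamp, a fusion protein of osteoclasts, were at 15.5, 15.2 and 16.1 and 16.2, 10.3 and 15.4 TPM in Th1 cells and at most 0.526 and 0.596 TPM in any Th17 library. The glycolate oxidase gene Hao1 was at 24.8, 17.2 and 16.1 TPM against 1.22, 1.72 and 1.28 TPM, and Plac8 at 58.2, 68.9 and 46.1 TPM against 6.94, 7.43 and 9.65 TPM.

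More interferon-responsive genes were called without Th17 replicate 2, as was true over all genes. Over the 6 libraries 4.3% of all genes were called, and 19.5% without that library. None of 20 interferon-induced GTPases tested passed in either direction over all 6 libraries, with a median of -0.28. Gbp2, a guanylate-binding protein, was at 1788, 2640 and 1438 TPM in Th17 and 1099, 1073 and 1242 TPM in Th1 cells, and Igtp, an immunity-related GTPase, at 865, 1089 and 690.3 TPM against 1204, 1171 and 1202 TPM. Gbp2 stood higher in each Th17 library and Igtp in each Th1 library, and neither passed (adjusted p = 0.18 and 0.281). Without Th17 replicate 2, 11 of the 20 were higher in Th1 and 2 in Th17. Among wild-type cells 14 of 19 were higher in Th1 and none in Th17, with a median of -1.38. At an unadjusted p below 0.05 the comparison of GLUT3-deficient cells called 2256 genes in all. Of 39 antiviral genes tested, 3 were higher in Th1 and 2 in Th17, against 5 and 8 without Th17 replicate 2. Usp18, which removes the ubiquitin-like ISG15, was at 345, 398 and 348 TPM in Th1 and 76.5, 122 and 50.5 TPM in Th17 cells, and Ifitm3, which blocks viral entry, at 2423, 2292 and 1500 TPM against 319.7, 374 and 293 TPM. Phf11b and Ifi27l2a were the members higher in Th17, at 0.75 and 1.40. In the p200 family of nucleic acid sensors 3 of 10 were higher in Th1 (Ifi205, Ifi211 and Mndal, from -0.93 to -0.89), and these genes too are close copies (without Th17 replicate 2, 5 were higher in Th1). Irf8 was the only one of 9 interferon regulatory factor genes to pass over all 6 libraries, and without Th17 replicate 2 3 were higher in Th1 and 2 in Th17.

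The lists of other T helper subsets held calls in both directions. Beside them, 2.08% of all genes tested were higher in Th17 and 2.23% in Th1, and 10.3% and 9.18% without Th17 replicate 2. The Th2 list had 2 of 12 higher in Th17 and 2 in Th1 (3 and 3 without Th17 replicate 2). Il4, the Th2 cytokine, was at 53, 25.9 and 59.9 TPM in Th17 and 9.75, 11.4 and 8.26 TPM in Th1 cells (2.05 ± 0.34 (SE), adjusted p = 0.0247), and Ccr8 passed at 1.73 ± 0.23 (SE). Among regulatory T cell genes 2 of 19 were higher in Th17 (Nt5e and Capg) and 2 in Th1 (Il10 and Tnfrsf9), against 4 and 5 without Th17 replicate 2. Foxp3, the defining gene of that subset, was low in both, at 6.01, 11.5 and 5.85 TPM in Th17 and 3.86, 3.14 and 4.91 TPM in Th1 cells, and did not pass (adjusted p = 0.281). In the follicular helper list 2 of 15 were higher in Th17 and 3 in Th1 (4 and 4 without Th17 replicate 2). Cd40lg, which licenses B cells and dendritic cells, was at 119, 110.2 and 128 TPM in Th1 and 18.8, 33.7 and 17 TPM in Th17 cells (-2.38 ± 0.27 (SE), adjusted p = 0.00655). TNF-family ligands were higher in Th1 for 5 of 13 (Tnf, Lta, Fasl, Cd40lg and Cd70, which encode inflammatory, death and costimulatory ligands) and in Th17 for 2 (Tnfsf8 and Tnfsf13b), against 7 and 4 without Th17 replicate 2. Cd70 was at 36.8, 36.8 and 26.6 TPM in Th1 and 5.81, 5.36 and 4.07 TPM in Th17 cells, and its receptor gene Cd27 was also higher in Th1 (-1.19 ± 0.18 (SE)). Tnfsf8, the CD30 ligand, was at 180, 179 and 128 TPM in Th17 and 41, 38.2 and 49.9 TPM in Th1 cells. Of 19 TNF receptor genes 4 were higher in Th17 (Tnfrsf11b, Tnfrsf23, Tnfrsf25 and Tnfrsf26) and 2 in Th1 (Cd27 and Tnfrsf9), with a median of 0.15, against 7 and 4 without Th17 replicate 2. Tnfrsf23 and Tnfrsf26 are neighbouring close copies. In the naive and memory list Tcf7 and Igfbp4 were higher in Th17 (1.63 and 2.66) and 5 of 32, Ly6c2 (-1.70) among them, in Th1, and without Th17 replicate 2 8 were higher in each direction. The inhibitory receptor list had 3 of 20 higher in Th1 (Havcr2, Pdcd1lg2 and Lilrb4a) and none in Th17, against 11 and 3 without Th17 replicate 2.

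**Figure D4:**
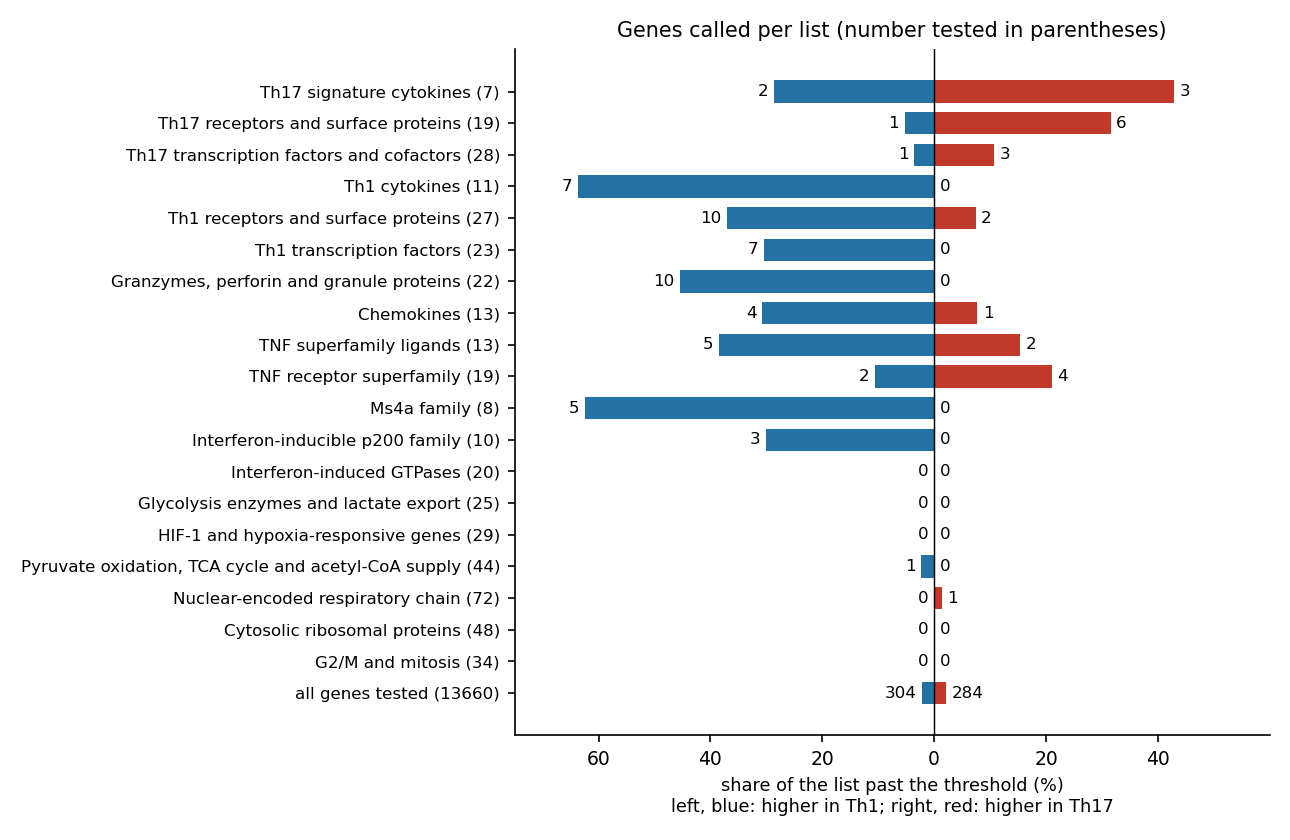
Share of each gene list past the threshold (x axis, percent of members tested), to the left when higher in Th1 and to the right when higher in Th17. Numbers beside the bars are counts of genes, numbers in parentheses the members tested. The Th1 cytokines reach 7 of 11. The lists of glycolysis, hypoxia, pyruvate oxidation and the respiratory chain lie at 0 or 1 gene, against 4.3% of all genes tested.

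Counts in the lists of energy metabolism are to be read against the 4.3% of all genes called over the 6 libraries and the 19.5% called without Th17 replicate 2. None of 25 tested genes of glycolysis and lactate export passed, with a median of 0.08, and without Th17 replicate 2 2 were higher in each direction. Ldha, lactate dehydrogenase A, was at 3205, 3162 and 3004 TPM in Th17 and 2958, 3013 and 3615 TPM in Th1 cells, overlapping. Hk2, the inducible hexokinase, was at 14, 47.5 and 12.8 TPM in Th17 and 33.1, 30.6 and 27.7 TPM in Th1 cells, with Th17 replicate 2 above all Th1 libraries and replicates 1 and 3 below them. It did not pass (-0.54, adjusted p = 0.591), but was higher in Th1 without that library (-1.13, adjusted p = 0.00099). Slc2a1, which encodes the remaining main glucose transporter GLUT1, overlapped at 504, 659.7 and 334 TPM in Th17 and 567, 456 and 678 TPM in Th1 cells. Of 6 tested sugar transporter and related genes 1 passed, Slc2a6, which encodes the lysosomal transporter GLUT6, at 67.4, 89.7 and 56.9 TPM in Th17 and 22.7, 26.9 and 26.8 TPM in Th1 cells (1.43 ± 0.20 (SE), adjusted p = 0.015). Txnip, a glucose-responsive arrestin, was at 102, 184 and 82.5 TPM against 68.1, 87.5 and 74.6 TPM and did not pass. None of 29 hypoxia-responsive genes passed (2 in each direction without Th17 replicate 2), Hif1a among those that overlapped (463, 1069 and 304 TPM in Th17, 624, 536 and 611 TPM in Th1). For Hif1a, Th17 replicate 2 lay above all Th1 libraries and replicates 1 and 3 below them. Without that library Hif1a was higher in Th1 (-0.65, adjusted p = 0.0367).

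Of 72 nuclear-encoded respiratory chain genes 1 passed, the complex I subunit Ndufb11, at 1078, 517 and 1200 TPM in Th17 and 293, 291 and 242 TPM in Th1 cells (1.67 ± 0.32 (SE), adjusted p = 0.0419). The list median was -0.15. Leaving out Th17 replicate 2 gave a median of 0.08, with 3 genes higher in Th17 and 2 in Th1. Among 44 genes of pyruvate oxidation, the tricarboxylic acid cycle and acetyl-CoA supply, the cytosolic malic enzyme gene Me1 was the 1 to pass, at 8.71, 7.32 and 5.6 TPM in Th1 and 0.51, 1.04 and 0.208 TPM in Th17 cells (3 genes higher in each lineage without Th17 replicate 2). Acly, which makes cytosolic acetyl-CoA from citrate, was at 113, 453 and 63.4 TPM in Th17 and 64.4, 66.5 and 89.5 TPM in Th1 cells, highest in Th17 replicate 2 (adjusted p = 0.486). None of 34 histone acetylation genes passed, with a median of 0.51, and without Th17 replicate 2 8 were higher in Th17 and 1 in Th1, with a median of 0.22. Fatty acid oxidation had 2 of 28 higher in Th1 and 1 in Th17 (2 and 6 without Th17 replicate 2). Acadl, the long-chain acyl-CoA dehydrogenase, was at 735, 664 and 657 TPM in Th1 and 197, 224 and 201 TPM in Th17 cells, with narrow spread in both (-1.72 ± 0.12 (SE), adjusted p = 0.00157). Decr1, a mitochondrial dienoyl-CoA reductase, was also higher in Th1 (-1.12 ± 0.20 (SE)) and the monoglyceride lipase gene Mgll higher in Th17 (1.03 ± 0.18 (SE)). In the pentose phosphate list Prps1, the enzyme that makes phosphoribosyl pyrophosphate, was at 469, 343 and 476 TPM in Th17 and 124, 143 and 144 TPM in Th1 cells and was the 1 of 12 that passed (1.63 ± 0.17 (SE), adjusted p = 0.00502), against 1 higher in Th17 and 2 in Th1 without Th17 replicate 2. In the cholesterol and fatty acid synthesis list 1 of 37 was higher in each direction, Abcg1 in Th17 (0.98 ± 0.15 (SE)) and Msmo1 in Th1 (-0.84 ± 0.15 (SE)), against 3 and 4 without Th17 replicate 2. None of 35 genes of the serine, one-carbon and ATF4 list passed (5 higher in Th1 without Th17 replicate 2), and 1 of 32 redox defence genes did, Prdx5, higher in Th17 (0.71 ± 0.14 (SE); 6 higher in Th17 and 3 in Th1 without that library).

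Among G1/S and replication genes 2 of the D cyclins passed. Ccnd1, which encodes cyclin D1, was at 12.6, 14.9 and 16.6 TPM in Th1 and 0.721, 0.425 and 0.37 TPM in Th17 cells (-3.38 ± 0.21 (SE), adjusted p = 0.00133), and the more abundant Ccnd2 at 565, 553 and 557 TPM against 371, 301 and 349.5 TPM (-0.72 ± 0.13 (SE)). Ccnd1 and Ccnd2 were the only ones of 36 G1/S and replication genes to pass over all 6 libraries, where 4.3% of all genes were called. Without Th17 replicate 2, 6 were higher in Th1 and 1 in Th17, against 19.5% of all genes called. The call of Ccnd2, like those of Il22, Il23r and others, was lost when any library other than Th17 replicate 2 was left out. None of 34 G2/M genes passed (median 0.22), none of 42 Myc and ribosome biogenesis genes (median 0.11), and none of 48 ribosomal protein genes (median 0.04). Leaving out Th17 replicate 2 gave 5 G2/M genes higher in Th17, and 1 Myc and ribosome biogenesis gene higher in Th17 and 2 in Th1. Without Th17 replicate 2, 24 of the ribosomal protein genes were higher in Th17, with a median of 0.37. The summed level of the ribosomal protein genes was 45000 and 49300 TPM in Th17 replicates 1 and 3, 26400 TPM in replicate 2 and 35000 to 37600 TPM in the Th1 libraries. The part of transcript length in this was not tested. Myc overlapped between the lineages at 137, 303 and 126 TPM in Th17 and 118, 124 and 161 TPM in Th1 cells. Among cell cycle inhibitors and p53 targets, 4 of 24 were higher in Th1 and 2 in Th17 (10 and 4 without Th17 replicate 2), and members of one family went opposite ways: Gadd45g, a stress-response gene that promotes Ifng transcription, was at 589, 549 and 486 TPM in Th1 and 65.2, 65.7 and 88.4 TPM in Th17 cells, while Gadd45a was at 9.64, 7.61 and 10.6 TPM in Th17 and 2, 2.92 and 2.66 TPM in Th1 cells. In the BCL2 family the survival genes Bcl2a1a, Bcl2a1b and Bcl2a1d were higher in Th1 (-1.36, -1.65 and -1.37), near-identical copies that count as one observation, as was the death-promoting Pmaip1 (-1.58), whereas the death-promoting Bik and Bcl2l11 were higher in Th17 (1.78 and 1.17). The orphan nuclear receptor gene Nr4a2, induced by antigen receptor signals, was at 17.1, 16.1 and 26.5 TPM in Th1 and 2.13, 3.41 and 2.81 TPM in Th17 cells.

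Markers of other cells were present, at levels that differed between the lists. Gamma delta T cell genes overlapped between the lineages: Trdc was at 50.8, 81.2 and 59.9 TPM in Th17 and 46.3, 68.7 and 52.2 TPM in Th1 cells, none of 6 tested passed, and the summed level of the list was 168 to 271 TPM in Th17 and 176 to 280 TPM in Th1 libraries. B cell markers (none of 6 passed) varied between replicates, with Igkc at 114, 88.3 and 60.3 TPM in Th17 and 228, 328 and 29.1 TPM in Th1 cells. The summed level of that list was 132 to 199 TPM in Th17 and 69.4 to 477 TPM in Th1 libraries. None of 5 mast cell and basophil markers, 8 red cell and platelet markers or 3 stromal and epithelial markers passed, and Fcer1a was highest in the libraries numbered 2 of both lineages (34.5 TPM in Th17, 15.7 TPM in Th1). Without Th17 replicate 2, 1 mast cell and basophil marker and 1 red cell and platelet marker were higher in Th1. In the stromal and epithelial list 1 was then higher in Th17. Of 6 tested myeloid markers 3 were higher in Th17 (4 without Th17 replicate 2): Lyz2 at 14.7, 25.3 and 9.25 TPM against 0.426, 0.658 and 2.09 TPM, Ly6g at 8.54, 12.4 and 15.8 TPM against 3.09, 1.8 and 3.48 TPM, and S100a8 at 3.37, 2.23 and 1.62 TPM against 0 in all 3 Th1 libraries. The summed level of the 16 myeloid markers was 58.4 to 85.5 TPM in Th17 and 25.1 to 40.4 TPM in Th1 libraries, and Itgam, Csf1r and Adgre1 were below 1 TPM throughout and Siglech was at 0 in all 6 libraries. Their part in the Th17-side results was not tested.

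The lineage difference was then set beside that of wild-type cells, which are other libraries. Between wild-type Th17 and Th1 cells 655 of 13515 genes (4.85%) differed, 369 higher in Th17 and 286 higher in Th1, a split that became 270 and 367 under median-of-ratios scaling. With the replicate number as a block, for a pairing taken from the data alone, the count was 3360. Of the 284 genes higher in GLUT3-deficient Th17 cells, 236 were tested in wild type, 220 had the same sign there and 108 were called the same way, and none the opposite way. Of the 304 higher in GLUT3-deficient Th1 cells, 257 were tested, 238 had the same sign, 112 were called the same way and 2 the opposite way. These calls rest on the wild-type fit without the block. With it, 180 of the genes higher in Th17 were called the same way and 8 the opposite way, and 186 and 5 of those higher in Th1. The median log2 differences of the 2 groups of genes were 1.56 and -1.51 in the GLUT3-deficient and 0.95 and -0.88 in the wild-type cells, which is a smaller size in the libraries that did not choose the genes. Whether the lineage difference itself depended on the genotype was tested with an interaction term over all 12 libraries, which passed for 93 of 14579 genes (0.638%), 51 in the positive and 42 in the negative direction.

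Ifng and Il17f did not pass that test. Ifng had a lineage difference of -6.65 in GLUT3-deficient and -7.41 in wild-type cells (interaction 0.77, adjusted p = 1), with higher levels in both GLUT3-deficient lineages: wild-type Th1 cells were at 733, 487 and 1115 TPM and wild-type Th17 cells at 4.64, 1.99 and 3.77 TPM. Il17f had 6.69 and 9.07, just outside the threshold (adjusted p = 0.0547). Ccl20 did pass, by 3.27 (adjusted p = 0.00584): wild-type Th17 cells were at 32.2, 36.2 and 53.2 TPM, against 423, 366 and 629 TPM in GLUT3-deficient Th17 cells. Ccn3 and Gja5 had larger lineage differences in GLUT3-deficient cells as well (interactions of 3.50 and 3.63, adjusted p = 0.000358 and 0.000759), with wild-type Th17 levels of 3.22, 3.82 and 3.96 and 1.56, 2 and 1.95 TPM.

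On the Th1 side the gap widened for some genes and narrowed for others. Il10 was at 60.1, 58.1 and 67.1 TPM in wild-type Th1 and 56.4, 57.5 and 56.9 TPM in wild-type Th17 cells, a lineage difference of -0.11 that compares with -3.17 in GLUT3-deficient cells (interaction -3.05, adjusted p = 0.000358). Only the GLUT3-deficient Th1 libraries stood out for this gene. Il23a and Spp1 had the same form, with wild-type differences of 0.06 and 0.45 and interactions of -3.13 and -2.93 (adjusted p = 0.00974 and 0.0346). For Gzmb, Nkg7, Plac8 and Ms4a4b the GLUT3-deficient difference was the smaller one. Nkg7 was at 28.5, 24 and 19.2 TPM in wild-type Th17 and 882, 1033 and 991 TPM in wild-type Th1 cells, a difference of -5.30 against -2.22 without GLUT3 (adjusted p of the interaction 0.00103). Gzmb had -4.18 against -2.40 (adjusted p = 0.0346), its wild-type Th17 level being 168, 108 and 101 TPM. Without the block the 2 genes called in opposite directions in the genotypes were Cyp11a1, which starts steroid synthesis, and Tubb3, a tubulin, which was named after its values were seen. Tubb3 was at 0.58, 1.09 and 0.182 TPM in GLUT3-deficient Th17 and 7.69, 9.72 and 6.21 TPM in GLUT3-deficient Th1 cells. Cyp11a1 was at 15.1, 16.7 and 13.4 TPM in GLUT3-deficient Th17 and 31.6, 33 and 29.1 TPM in GLUT3-deficient Th1 cells, and at 17.3, 18.8 and 21.2 and 6, 5.01 and 6.51 TPM in the wild-type groups, so its Th1 level was the one that differed most between genotypes. Markers of other cells moved with the genotype. The summed level of gamma delta T cell markers was 168 to 280 TPM in the 6 GLUT3-deficient and at most 34.1 TPM in the 6 wild-type libraries, that of mast cell and basophil markers 16.8 to 111 TPM against 2.19 to 4.26 TPM, and that of red cell and platelet markers 47.5 to 203 TPM against 9.48 to 25.8 TPM. For CD8 T cell and natural killer cell markers it was 116 to 338 TPM against 58.1 to 94.4 TPM. Their part in the differences between genotypes was not tested, and whatever else set those cultures apart cannot be told apart from the genotype here.

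**Figure D5:**
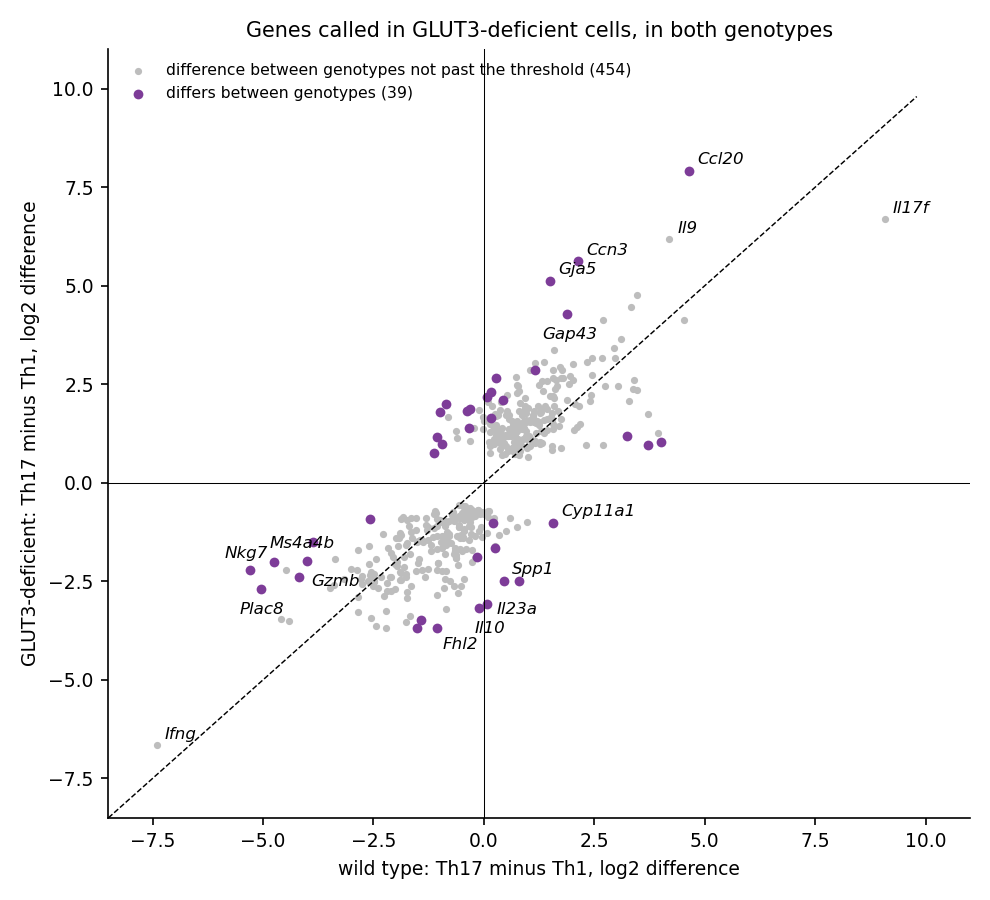
Lineage difference (Th17 minus Th1, log2) in GLUT3-deficient cells (y axis) against that in wild-type cells (x axis) for the 493 genes called in GLUT3-deficient cells and tested in wild type. The dashed line marks equal differences. Purple points (39) passed the test of the difference between genotypes, among them Ccl20, Ccn3 and Gja5 above the line and Il10 and Il23a at wild-type differences near 0.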

How the data were processed

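RNA was measured in 12 libraries, 3 per lineage and genotype. Per the labels' protocols, cDNA was amplified with SMART-Seq v4 and made into single-end Nextera XT libraries, and no label gives the strand setting, so overlapping and antisense genes cannot be told apart. STAR 2.7.2b and the build GRCm38.p6 are named in the submitters' processing notes, along with featureCounts 1.6.4 (Subread), DESeq2 1.24.0, cutadapt and bcl2fastq 2.20.0.422. The authors deposited TPM values per gene, 1 table per lineage, each column scaled to its own total of 1000000, so that levels across the tables are set side by side on that per-library scale. The step from counts to TPM is not given in the sources used here. The values carry no other deposited score, and reads were recovered from their steps (100% whole within 0.02 reads), at 16596283 to 28496606 reads per library.

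A gene entered a fit when at least 3 of its libraries reached 1 TPM. Log2(TPM + 1) was tested with limma 3.58.1 (trend, R 4.3.3), two-sided, with Benjamini-Hochberg adjustment over all genes tested and a threshold of 0.05. The GLUT3-deficient and wild-type comparisons each used their own 6 libraries, and the interaction used all 12. The fits were tested on simulated data. Tables were handled in Python 3.11.15 with pandas 2.3.3. The members and gene lists were chosen with earlier results of these data known. The lists have 1418 entries, of which 1392 are symbols of the tables, 9 were found through an older symbol and 17 were not found, and mitochondrially encoded genes were not used here. Genes named are a key set, the 15 largest called and non-overlapping differences each way averaging at least 5 TPM, the 4 smallest adjusted p of each list and the 8 smallest of the interaction each way, besides marker genes and single genes called in a list, which were named after their values were seen. Some genes taken by this rule are not reported here. Replicates of a group differed by a chi-square of at least 12.18 per gene, beyond sampling noise. Same-numbered libraries of the 2 lineages deviated together in wild type (r = 0.74, 0.28 and 0.56), which pairs them by the data alone, since no label does. In GLUT3-deficient cells this could not be judged, because Th17 replicate 2 weighs on all Th17 deviations. Alternatives were no filter, a 5 TPM filter, pseudocounts of 0.1 and 5, median-of-ratios scaling, a replicate block, voom on recovered reads, a fit over all 12 libraries and leaving out each library.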

Additional observations from a re-analysis of the deposited data

Results flagged for a closer look

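For 29 named genes the Th17 minus Th1 log2 difference in GLUT3-deficient cells differed from that in wild-type cells by the interaction test over 12 libraries (limma, adjusted p below 0.05). The difference of the differences was positive for Ccl20 (3.27), Ccn3 (3.50), Gja5 (3.63), Gap43 (2.40), Cd226 (2.15) and Tnfsf8 (2.19), which stood further toward Th17 in GLUT3-deficient cells. It was also positive for Gzmb (1.78), Nkg7 (3.08), Ms4a4b (2.74), Ms4a4c (2.02), Plac8 (2.35), the interferon-induced GTPase gene Tgtp1 (1.98) and the nucleic acid sensor Ifi211 (1.66), whose Th1 excess was smaller there. For Ly6g (2.78), Phf11b (1.88) and Ubd (2.84) the mean was higher in Th17 without GLUT3 and higher in Th1 in wild-type cells. Ly6g was at 20.6, 29.9 and 15.7 TPM in wild-type Th17 and 37.2, 66.4 and 32.6 TPM in wild-type Th1 cells, and Phf11b at 58.6, 42.2 and 29.3 and 99.5, 109 and 72.5 TPM. S100a8 (1.93) was listed at 0 in 5 of 6 wild-type libraries and did not enter the wild-type comparison. Ifi211 stood at 105, 101 and 84.9 TPM in Th17 and 186, 182 and 178 TPM in Th1 cells without GLUT3, and at 1.02, 1.07 and 0.817 and 11.5, 9.83 and 10.7 TPM in the wild-type groups. The value was negative for Il10 (-3.05), Il23a (-3.13), Fhl2 (-2.62), Hao1 (-2.42), Lta (-1.24), Spp1 (-2.93), Ocstamp (-2.07), Rufy4 (-2.18) and Cyp11a1 (-2.56), which stood further toward Th1 in GLUT3-deficient cells. Ccnd1 (-3.18) was below 1 TPM in every wild-type library, at most 0.611 TPM, and did not enter the wild-type comparison.

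For 2 further genes it was negative, with a Th17 excess that was smaller in GLUT3-deficient than in wild-type cells. Cd86, the costimulatory ligand of CD28 and CTLA-4, had -2.63, with 52.6, 43 and 35.6 TPM in wild-type Th17 and 4.89, 5.11 and 3.31 TPM in wild-type Th1 cells, against 11.8, 13.8 and 9.37 and 10.1, 10.8 and 5.32 TPM in the GLUT3-deficient groups. The hair keratin gene Krt83 had -3.33, with 32.3, 18.1 and 15.4 TPM in wild-type Th17 cells and at most 1.94 TPM in any GLUT3-deficient library, and it did not reach the 1 TPM filter of the GLUT3-deficient comparison. No reason for these differences was tested.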

How the results depend on the processing

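The count of 588 genes between GLUT3-deficient lineages stayed within 1.5 times under no filter (479), a 5 TPM filter (497), pseudocounts of 0.1 (575) and 5 (527), median-of-ratios scaling (669), voom on recovered reads (736) and a fit over all 12 libraries (881). A replicate block gave 181. Over all genes tested, the deviations of same-numbered libraries from their group means had r = 0.23, -0.05 and -0.20. Th17 replicate 2, far from its group, weighs on the mean from which all Th17 deviations are taken. These values therefore cannot show whether same-numbered libraries were paired. Some marker sums were highest in the libraries numbered 2 of both lineages. These were mast cell and basophil (111 TPM in Th17, 73 TPM in Th1), gamma delta T cell (271 and 280 TPM) and red cell and platelet markers (129 and 203 TPM). The same held for CD8 T cell and natural killer cell markers (132 and 338 TPM) and myeloid markers (85.5 and 40.4 TPM). B cell and stromal marker sums were not highest in the libraries numbered 2 of both lineages. Whether the numbers mark a shared source was not tested. Not every library correlated best with its own number. Leaving out 1 library gave 143 to 2663 genes, the highest without Th17 replicate 2. The wild-type count of 655 became 3360 with the replicate block and 282 to 871 with 1 library left out. The interaction count of 93 became 44 with a pseudocount of 0.1, 32 to 189 with 1 library left out (189 without Th17 GLUT3-deficient replicate 2) and 85 with the replicate block. The causes were not tested.

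Of 241 named genes tested, 126 were called and none of those changed sign under any of these alternatives. Calls lost were 21 with no filter, 11 with median-of-ratios scaling, 9 with voom, 8 with all 12 libraries, 4 and 1 with pseudocounts of 5 and 0.1 and 59 with the block. They were 53, 0 and 39 without Th17 replicates 1, 2 and 3, and 67, 64 and 54 without Th1 replicates 1, 2 and 3. Without Th17 replicate 2, 67 further named genes passed. The planned edgeR and DESeq2 fits were not run because the tables hold TPM and no counts. At the depths reached, 3 reads per 1000 bases correspond to 0.19 to 0.437 TPM, and levels below that are not distinguishable from 0.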

Other observations

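Among lists not yet described, counts are read against the 4.3% of all genes called over the 6 GLUT3-deficient libraries and the 19.5% called without Th17 replicate 2. Of 31 tested TGF-beta receptors, ligands and targets, 1 was higher in Th17 and 1 in Th1. Pmepa1, a feedback inhibitor that TGF-beta induces, was at 65.1, 80.2 and 62.6 TPM in Th17 and 35, 33.9 and 37.9 TPM in Th1 cells (0.93 ± 0.16 (SE), adjusted p = 0.0253), without overlap, and the receptor gene Acvrl1 was higher in Th1 (-0.99). Without Th17 replicate 2 the list had 9 higher in Th17 and 2 in Th1. In the STAT, JAK and SOCS list Socs2, an inhibitor of cytokine receptor signals, was at 62.1, 55.8 and 56.9 TPM in Th17 and 18.2, 19 and 19.4 TPM in Th1 cells (1.57 ± 0.14 (SE), adjusted p = 0.00305), and Stat4 was the other of 25 to pass (1 higher in Th17 and 4 in Th1 without Th17 replicate 2). Of 27 genes of antigen presentation, H2-Q7 was higher in Th1 (-0.74) and the ubiquitin-like Ubd higher in Th17, at 84.6, 49.1 and 108 TPM against 23.6, 15.6 and 17.2 TPM. This list had 2 higher in Th17 and 10 in Th1 without Th17 replicate 2. In wild-type cells Ubd was at no more than 2.31 TPM in any library. Il15ra, the chain that presents interleukin 15, was higher in Th1 (-1.07).

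Single genes passed in the remaining lists, all higher in Th1: the adaptor gene Sla2 of 40 tested for T cell receptor signalling (-1.71), the chaperone gene Dnajb11 of 33 for protein folding (-0.70), and Nr4a2 and the phosphatase gene Dusp2 of 33 immediate early genes (-2.45 and -0.86). Leaving out Th17 replicate 2 gave 9 higher in Th1 and 3 in Th17, 7 and 2, and 9 and 5 in these 3 lists. Il2ra and Il4ra, which encode chains of cytokine receptors, were highest in Th17 replicate 2. Il2ra was at 321, 1709 and 339 TPM and Il4ra at 223, 841 and 162 TPM in the Th17 libraries, against 367, 362 and 331 and 142, 144 and 182 TPM in Th1 cells, and neither passed.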
